A study of Mus musculus with 18 samples.

Results

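Glycolysis and its control by oxygen sensing were described through a list of 35 genes that runs from glucose transporters to the hypoxia-inducible factor (HIF) pathway. Members were chosen by symbol, as the microarray probes annotated to a listed symbol and to no other. Of the 35 genes, 32 had such a probe, 38 probes in all, out of 22180 genes tested on the same arrays. Gpi1, Aldoa and Eno1 had none and are not measured here, and Slc2a1, Gapdh, Pgam1, Pdk1 and Hif1a had several probes, which were averaged.

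The RNA came from sorted small-intestinal phagocytes of male and female mice of the strain VDTR. Their epithelium carries, under the villin promoter, a receptor for diphtheria toxin joined to green fluorescent protein (GFP). All groups share the toxin: every mouse was injected in the peritoneum with 2 ng per kg and killed 4 hours later, and ages are not given. From live CD45+ CD11c+ MHCII+ cells 3 populations were gated and each was split into GFP-plus cells, taken to hold epithelial material, and GFP-minus cells. They were CD103+ CD24+ dendritic cells (CD103 DCs), CD103+ CD11b+ CD64+ macrophages (here CD103 macrophages) and CD11b+ CD64+ macrophages (here CD11b macrophages), which gives 6 groups of 3 arrays.

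Glycolysis splits glucose into pyruvate in the cytosol and yields ATP without oxygen. Its main control points are glucose entry, hexokinase, phosphofructokinase and pyruvate kinase, and lactate dehydrogenase regenerates the NAD+ that the pathway needs. When oxygen is scarce the prolyl hydroxylases of the EGLN family stop marking HIF-1α for VHL-mediated destruction, and HIF-1 raises many glycolytic genes. Activated dendritic cells and inflammatory macrophages are known for a rapid increase in glycolysis.

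HIF-1 binds the core motif ACGTG in many promoters, and this motif was searched on both strands in the 250 bases upstream of each annotated start (RefSeq, mouse build GRCm38.p6). It was found in 22 of 50 windows of the listed genes (44.0%), against 5444 of 32851 windows of all genes (16.6%). By gene, 34 of the 35 listed genes had a window, and 18 of these held the motif (52.9%), against 4998 of 27025 of all genes (18.5%). The windows of the listed genes also had a higher median GC content, 60.4% against 52.4%. Printed here are the windows of 4 members that differed between DCs and macrophages and whose window lay wholly outside the annotated gene, which the windows of Pfkp and Eno3 did not. The windows of Pfkp and Eno3, which also differed, held no match, and neither did the other window of Pdk2. Bases in capitals match ACGTG or its reverse complement CACGT. The sequences are given 5′ to 3′ on the gene's own strand, from Slc2a1 at chr4:119108495-119108744 (plus strand), Hk2 at chr6:82774455-82774704 (minus strand), Pgk1 at chrX:106186850-106187099 (plus strand) and Pdk2 at chr11:95041372-95041621 (minus strand).
Slc2a1: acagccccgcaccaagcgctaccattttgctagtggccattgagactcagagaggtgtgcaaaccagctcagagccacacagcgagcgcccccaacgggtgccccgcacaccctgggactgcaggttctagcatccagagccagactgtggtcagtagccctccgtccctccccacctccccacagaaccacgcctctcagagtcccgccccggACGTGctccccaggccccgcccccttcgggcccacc
Hk2: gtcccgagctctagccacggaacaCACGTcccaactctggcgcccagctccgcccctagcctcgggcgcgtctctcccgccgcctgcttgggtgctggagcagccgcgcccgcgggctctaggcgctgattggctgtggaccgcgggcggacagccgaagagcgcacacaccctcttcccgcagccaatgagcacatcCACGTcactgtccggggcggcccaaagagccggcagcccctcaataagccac
Pgk1: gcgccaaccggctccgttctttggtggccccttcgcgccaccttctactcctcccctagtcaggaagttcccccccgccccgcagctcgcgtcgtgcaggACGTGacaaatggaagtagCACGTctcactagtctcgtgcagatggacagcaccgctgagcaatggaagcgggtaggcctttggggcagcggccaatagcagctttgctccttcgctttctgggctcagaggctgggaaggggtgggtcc
Pdk2: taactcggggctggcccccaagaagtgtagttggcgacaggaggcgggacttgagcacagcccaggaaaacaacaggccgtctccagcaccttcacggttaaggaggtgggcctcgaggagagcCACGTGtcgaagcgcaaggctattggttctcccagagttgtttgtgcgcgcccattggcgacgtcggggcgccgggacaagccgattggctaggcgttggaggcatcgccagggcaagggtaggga
The match of Slc2a1 began 36 bases before the start, those of Hk2 226 and 52 bases before it, and those of Pgk1 150 and 131 bases before it. In Pdk2 a single palindrome gave 2 overlapping matches, 126 and 125 bases before the start. A match is a description of the letters, and none of these data show binding.

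On the log2 scale of the deposited values 0 is a probe's own median over the 18 arrays, so levels cannot be compared between genes. Whether the 3 arrays of a group stem from separate mice is not in the labels, which also carry an n value of 4 without saying what it counts, and the p-values then cover only the spread among these arrays, which may be technical. The 10 measured DC markers averaged 2.04 to 2.39 on the arrays of GFP-plus DCs and 1.98 to 2.19 on those of GFP-minus DCs, against -1.10 to 0.52 on the macrophage arrays. Flt3, Xcr1, Irf8 and the gate's own Itgae and Cd24a set all DC arrays apart, whereas Zbtb46, Batf3, Itgax, H2-Ab1 and Ccr7 overlapped between DCs and macrophages. Itgae, which encodes CD103, had values of -0.44, -0.15 and 0.05 in GFP-plus CD103 macrophages and 3.44, -0.43 and 2.66 in GFP-minus CD103 macrophages, against -0.53 to -0.05 in CD11b macrophages. Itgae thus exceeded the range of the CD11b macrophages clearly on 2 of the 6 CD103 macrophage arrays. Replicate 1 of GFP-plus CD103 macrophages had the lowest estimated array weight, 0.352, and 9 of the 32 members fell below -1 on it.

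With the GFP gate, 2 members passed the test within a population. In DCs, Pfkfb3, which makes the strongest activator of phosphofructokinase, and Eno3, an enolase isozyme best known from muscle, were higher in GFP-plus cells than in GFP-minus cells. Of all genes 1.58% passed there in either direction. Unadjusted p in limma was under 0.05 for 11 of the 32 members, against 15.4% of all genes. No member passed the test in CD103 or CD11b macrophages, where 0.0541% and 0.0271% of all genes did. Between populations, averaged over both GFP gates, DCs had more Pfkp, a phosphofructokinase isozyme, than either macrophage population. They had less of the glucose transporter gene Slc2a1, the hexokinase gene Hk2 and the pyruvate dehydrogenase kinase gene Pdk2, the last narrowly against CD103 macrophages. Among GFP-minus cells alone only Pfkp passed.

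In DCs, 2 of the 32 members passed (limma, adjusted p of at most 0.05 over all genes), both higher in GFP-plus cells, against 1.58% of all genes in either direction, 0.325% higher and 1.26% lower (72 of 351 genes higher, and 18 of 37 after quantile normalization). Unadjusted p was under 0.05 for 11 members in DCs, against 15.4% of all genes. Without replicate 2 of GFP-plus DCs 5 members passed, while calls over all genes rose from 351 to 711. The added members were Slc2a1 (-1.54, limma, adjusted p = 0.0166), Hk3 (-1.83, adjusted p = 0.0431) and Pdk3 (-1.72, adjusted p = 0.047), each lower in GFP-plus cells. The arrays of GFP-plus and GFP-minus DCs did not overlap for 10 members, 4 higher and 6 lower, against 20.1% of all genes (8.66% higher and 11.5% lower). In CD103 macrophages 0 members passed, against 0.0541% of all genes (0.0271% in each direction), although 8 had an unadjusted p under 0.05 in limma, against 9.2% of all genes. The arrays of the GFP gates did not overlap for 7 members there, 3 higher and 4 lower, against 13.0% of all genes (7.54% higher and 5.44% lower). In CD11b macrophages 0 members passed, against 0.0271% of all genes (0.0135% in each direction), and 2 had an unadjusted p under 0.05 in limma, against 6.16% of all genes. Non-overlap was seen for 9 members in that population, 3 higher and 6 lower, against 15.9% of all genes (9.63% higher and 6.24% lower). For the mean of the 3 GFP effects 1 member passed, against 0.41% of all genes, and 6 had an unadjusted p under 0.05 in limma, against 10.3% of all genes. For an F-test comparing that effect across the 3 populations 1 member passed, against 0.361% of all genes, and 9 had an unadjusted p under 0.05 in limma, against 12.6% of all genes.

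The median GFP effect over the 32 members was -0.20 in DCs, 0.00 in CD103 macrophages and 0.14 in CD11b macrophages, beside -0.02, 0.02 and 0.01 over all genes. The means of marker lists of other cells moved with the same gate. The mean of 11 T and innate lymphocyte markers was -0.52 to -0.07 in GFP-plus DCs, against 0.28 to 1.12 in GFP-minus DCs, and -0.27 to 0.81 in GFP-plus CD103 macrophages, against 0.93 to 2.85 in GFP-minus CD103 macrophages. The mean of 14 enterocyte markers was 0.29 to 0.50 in GFP-plus DCs, against -0.20 to 0.02 in GFP-minus DCs. The mean of 8 secretory epithelium markers was 0.24 to 1.08 in GFP-plus DCs, against -0.36 on all arrays of GFP-minus DCs, that of 7 B and plasma cell markers -0.61 to -0.25, against 0.30 to 0.47, and that of 12 macrophage markers -4.75 to -4.26, against -4.24 to -3.43. The GFP gates of DCs thus did not overlap in the mean of any of these lists. Single genes of a list did not all do so. Fabp1 was 2.09 to 2.48 in GFP-plus DCs, against -1.07 to 0.19 in GFP-minus DCs, while Fabp2, Epcam, Vil1 and Cdh1 overlapped. Defa24 was 3.87 to 4.53, against -0.34 to 0.19, while Agr2 was high, at 4.38, only on replicate 3 of GFP-plus DCs. Gzma and Gzmb did not overlap, while Cd3d, Cd3e and Cd8a did. The mean of 8 monocyte and neutrophil markers was -0.87 to -0.65 in GFP-plus DCs, against -0.48 to -0.03 in GFP-minus DCs. In CD103 macrophages the same monocyte and neutrophil mean was -0.64 to -0.11 in GFP-plus cells, against 0.53 to 0.58 in GFP-minus cells. CD11b macrophages had a monocyte and neutrophil mean of -0.54 to -0.21 in GFP-plus cells, against 0.42 to 0.64 in GFP-minus cells, and an enterocyte mean of 0.08 to 0.28, against -0.23 to -0.13. Of the monocyte and neutrophil markers, Ly6c2, Ccr2, Plac8 and, narrowly, S100a8 did not overlap between the gates of CD11b macrophages, while S100a9, Csf3r, Fn1 and Ly6g did. The part of these cells in the GFP effects was not tested, and in sorted bulk RNA fewer cells of a type and less RNA per cell cannot be told apart.

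**Figure D1:**
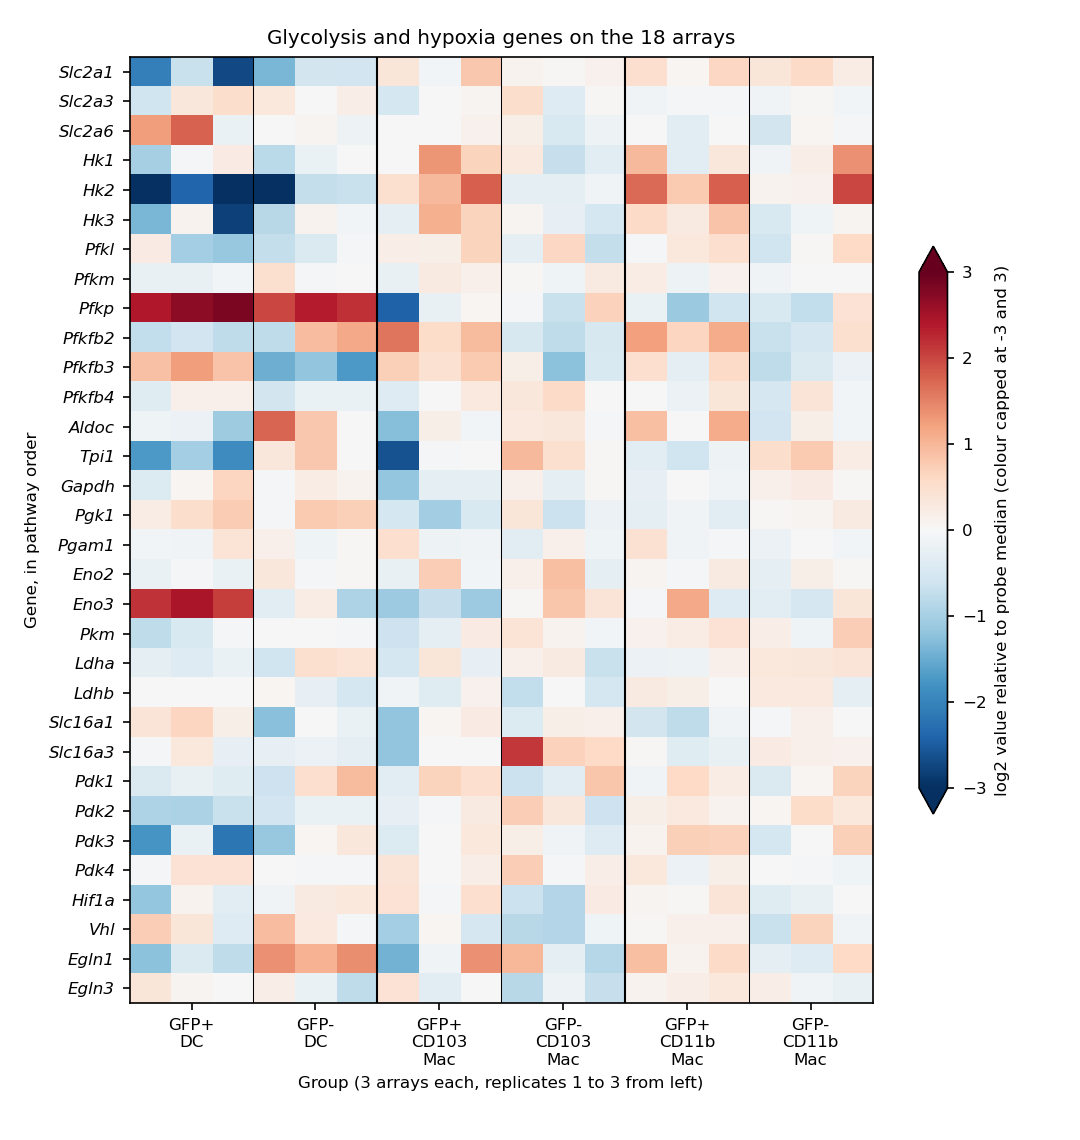
Log2 value relative to the probe median (colour) of the 32 measured members, in pathway order down the page, on the 18 arrays, with the 3 arrays of each group side by side. Hk2 and Slc2a1 were low and Pfkp high on the 6 DC arrays, and Eno3 was high on the 3 arrays of GFP-plus DCs.

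Averaged over both GFP gates, 6 of the 32 members differed between DCs and CD103 macrophages, 3 higher and 3 lower in DCs, against 7.93% of all genes (2.6% higher and 5.33% lower). Against CD11b macrophages 4 members differed, 1 higher and 3 lower in DCs, against 8.12% of all genes (2.17% higher and 5.94% lower). The 6 arrays of DCs and the 6 of a macrophage population did not overlap for 3 members against CD103 macrophages, 1 higher and 2 lower (3.83% of all genes, 1.11% higher and 2.72% lower). Against CD11b macrophages they did not overlap for 4 members, 1 higher and 3 lower (5.05% of all genes, 1.41% higher and 3.64% lower). CD103 and CD11b macrophages differed in 0 members, against 0.0721% of all genes (0.0631% higher and 0.00902% lower), and 2 members had an unadjusted p under 0.05 in limma, against 5.51% of all genes. Both DC comparisons use the same DC arrays. The median difference of the members was -0.10 against CD103 macrophages and -0.13 against CD11b macrophages, beside -0.02 and -0.03 over all genes.

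The population differences were also taken within each gate, a split that was added after the data were seen. Among GFP-plus cells 6 of the 32 members passed between DCs and CD103 macrophages, against 6.91% of all genes, and 8 between DCs and CD11b macrophages, against 9.45% of all genes. Among GFP-minus cells 1 member passed against each macrophage population, Pfkp both times, against 3.63% and 3.3% of all genes. These counts do not test a difference between the gates, which is the same contrast as a difference between the GFP effects of 2 populations. That contrast passed for 1 member, Eno3, between DCs and CD103 macrophages, against 0.347% of all genes (limma). It had adjusted p = 0.393 for Slc2a1, 0.255 for Hk2, 0.527 for Pfkp, 0.612 for Pgk1 and 0.767 for Pdk2. Between DCs and CD11b macrophages the smallest adjusted p of a member was 0.0806, for Eno3, and 0.532% of all genes passed.

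Glucose enters these cells through facilitative transporters, of which Slc2a1 (GLUT1) is the widespread one that HIF-1 raises. Its values were -2.05, -0.66 and -2.71 in GFP-plus DCs and -1.38, -0.56 and -0.57 in GFP-minus DCs, in the order of replicates 1 to 3 that is kept throughout. In CD103 macrophages they were 0.36, -0.08 and 0.82 in GFP-plus cells and 0.11, 0.04 and 0.13 in GFP-minus cells. In CD11b macrophages they were 0.51, 0.07 and 0.62 in GFP-plus cells and 0.36, 0.57 and 0.23 in GFP-minus cells. All 6 DC arrays lay below all 12 macrophage arrays. The log2 difference was -1.55 ± 0.28 (SE) against CD103 macrophages, a 2.92-fold lower level in DCs (limma, adjusted p = 0.0026), and -1.71 ± 0.28 against CD11b macrophages, 3.27-fold lower (adjusted p = 0.00105). Both probes of Slc2a1 passed in both comparisons but gave different sizes, -2.30 and -0.80 against CD103 macrophages and -2.47 and -0.95 against CD11b macrophages. Among GFP-minus cells alone the differences were -0.93 (adjusted p = 0.317) and -1.22 (adjusted p = 0.149), among GFP-plus cells -2.17 (adjusted p = 0.00332) and -2.20 (adjusted p = 0.00267). Within DCs, GFP-plus over GFP-minus cells gave -0.97 ± 0.40 (adjusted p = 0.26), and -1.54 (adjusted p = 0.0166) without replicate 2 of GFP-plus DCs.

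Slc2a3, a high-affinity neuronal and leukocyte transporter, stayed between -0.59 and 0.53 on all 18 arrays. Slc2a6, a transporter of the lysosomal membrane, reached 1.25 and 1.78 on replicates 1 and 2 of GFP-plus DCs and -0.19 on replicate 3, against -0.14 to 0.08 in GFP-minus DCs. Replicates 1 and 2 lay above all GFP-minus DC arrays and replicate 3 below them, and the difference, 0.96 ± 0.36, did not pass (limma, adjusted p = 0.211). Without replicate 3 of GFP-plus DCs it was 1.53 and passed (adjusted p = 0.00543).

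Hexokinases trap glucose as glucose 6-phosphate, and Hk2 is the inducible isozyme that binds mitochondria. Hk2 had values of -4.09, -2.38 and -3.17 in GFP-plus DCs and -3.56, -0.72 and -0.66 in GFP-minus DCs. Its values were 0.48, 0.97 and 1.79 in GFP-plus CD103 macrophages and -0.27, -0.29 and -0.10 in GFP-minus CD103 macrophages. CD11b macrophages had 1.69, 0.80 and 1.79 in GFP-plus cells and 0.10, 0.12 and 2.01 in GFP-minus cells. Again all 6 DC arrays lay below all 12 macrophage arrays, and replicate 1 of GFP-minus DCs stood with the GFP-plus DCs rather than with its own group. Averaged over the gates Hk2 was 7.26-fold lower in DCs than in CD103 macrophages (log2 difference -2.86 ± 0.51, limma, adjusted p = 0.00207). Against CD11b macrophages it was 11.4-fold lower (-3.52 ± 0.51, adjusted p = 0.000317). Among GFP-plus cells alone it was -4.29 against CD103 macrophages (adjusted p = 0.00154) and -4.64 against CD11b macrophages (adjusted p = 0.000711). Among GFP-minus cells alone it did not pass, at -1.43 (adjusted p = 0.433) against CD103 macrophages and -2.39 (adjusted p = 0.108) against CD11b macrophages.

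The GFP effect on Hk2 was -1.57 ± 0.72 in DCs, 1.30 ± 0.72 in CD103 macrophages and 0.68 ± 0.72 in CD11b macrophages, none of which passed in limma (adjusted p = 0.319, 0.633 and 0.923). The arrays of the 2 gates overlapped in DCs and CD11b macrophages but not in CD103 macrophages. A difference of the effect between populations was not shown (F-test, adjusted p = 0.343). Hk1, the housekeeping isozyme, and Hk3, the myeloid isozyme, passed in no comparison. Hk3 ran from -2.81 to 0.11 on the DC arrays and from -0.53 to 1.07 on the macrophage arrays, and its differences of -0.95 and -1.01 had adjusted p = 0.196 and 0.155. Hk1 ran from -0.99 to 1.37 over all 18 arrays.

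**Figure D2:**
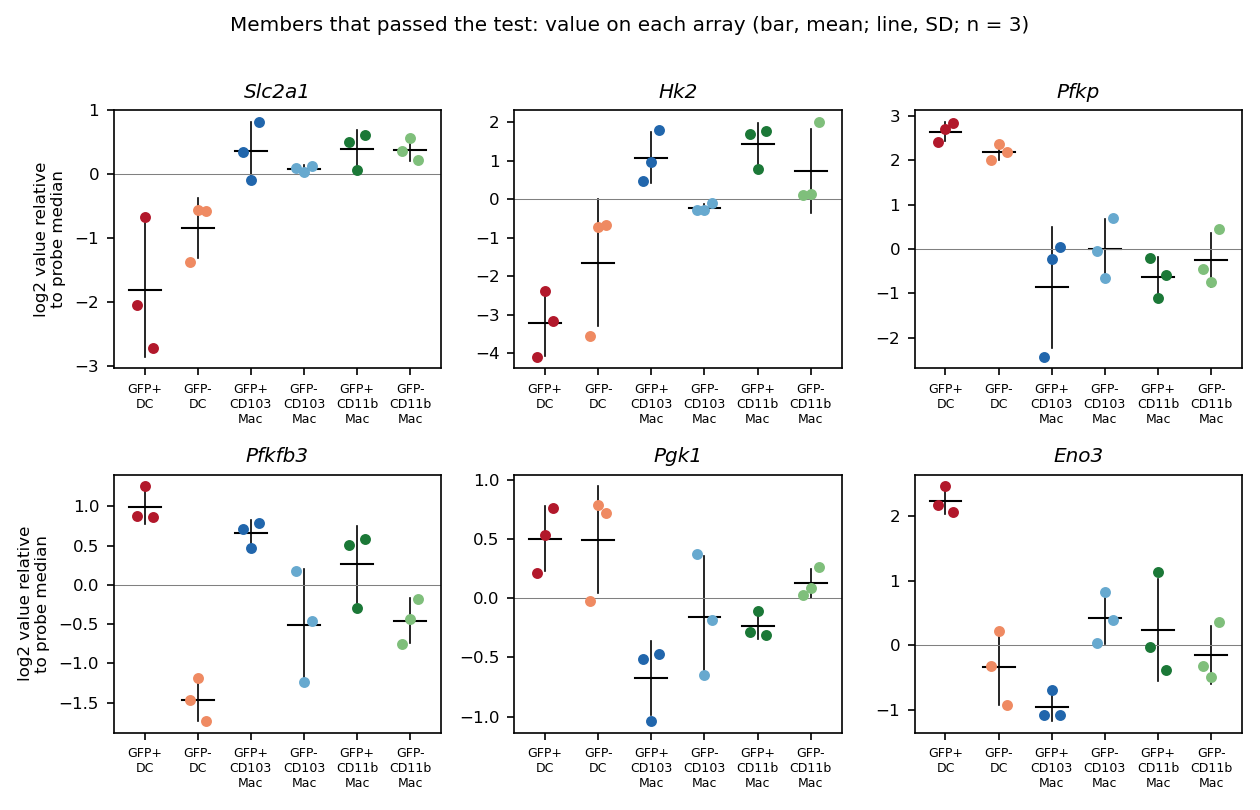
Log2 value relative to the probe median (y axis) on each array for 6 members that passed in at least 1 comparison, by group (x axis). Points are arrays, bars are group means and lines are SD (n = 3). Pfkp was 2.01 or higher on every DC array and 0.69 or lower on every macrophage array, and Eno3 was 2.07 or higher in GFP-plus DCs alone.

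Phosphofructokinase commits the sugar to glycolysis, and its platelet-type subunit Pfkp marked DCs. Pfkp had values of 2.41, 2.69 and 2.83 in GFP-plus DCs and 2.01, 2.36 and 2.19 in GFP-minus DCs. In CD103 macrophages it had -2.43, -0.22 and 0.05 in GFP-plus cells and -0.05, -0.66 and 0.69 in GFP-minus cells. In CD11b macrophages it had -0.20, -1.11 and -0.59 in GFP-plus cells and -0.45, -0.75 and 0.44 in GFP-minus cells. The DC and macrophage arrays did not overlap, with a gap between 0.69 and 2.01. Pfkp was 7.22-fold higher in DCs than in CD103 macrophages (2.85 ± 0.38, limma, adjusted p = 0.000146) and 7.24-fold higher than in CD11b macrophages (2.86 ± 0.38, adjusted p = 0.000134). Over all alternative settings and both gates the difference ran from 2.19 to 3.51 and from 2.44 to 3.28, and it passed in each. The liver-type subunit Pfkl ran from -1.14 to 0.24 in DCs and from -0.72 to 0.66 in macrophages, with differences of -0.63 and -0.66 that did not pass (adjusted p = 0.256 and 0.229). The muscle-type subunit Pfkm stayed within -0.23 and 0.49 on all arrays, so the DC difference within this enzyme was seen in 1 of its 3 subunit genes.

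The PFKFB enzymes make and break fructose 2,6-bisphosphate, and Pfkfb3 has the highest kinase activity of the family. Pfkfb3 had values of 0.87, 1.25 and 0.86 in GFP-plus DCs, against -1.46, -1.18 and -1.73 in GFP-minus DCs. The 2 gates were far apart, and the difference of 2.45 ± 0.31 made Pfkfb3 5.48-fold higher in GFP-plus DCs (limma, adjusted p = 0.00142). In CD103 macrophages it had 0.71, 0.47 and 0.79 in GFP-plus cells, against 0.18, -1.24 and -0.46 in GFP-minus cells. In CD11b macrophages it had 0.50, -0.30 and 0.58 in GFP-plus cells, against -0.75, -0.43 and -0.18 in GFP-minus cells. GFP-plus cells were higher on all arrays in CD103 macrophages, while 1 array overlapped in CD11b macrophages, and neither difference passed by itself (1.16 ± 0.31, adjusted p = 0.2, and 0.72 ± 0.31, adjusted p = 0.791).

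Averaged over the 3 populations Pfkfb3 was 2.72-fold higher in GFP-plus cells (1.44 ± 0.18, limma, adjusted p = 0.00384). It was the only member to pass that test. In DCs its effect stayed between 2.26 and 2.59 over all settings, with an adjusted p of at most 0.0309. The effect in DCs exceeded that in CD103 macrophages by 1.29 ± 0.44 (adjusted p = 0.236) and that in CD11b macrophages by 1.74 ± 0.44 (adjusted p = 0.0968), so a difference between populations was not shown (F-test, adjusted p = 0.175).

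Pfkfb2, the heart-type isozyme, ran in opposite directions with the gate. It had -0.73, -0.58 and -0.76 in GFP-plus DCs, against -0.77, 0.92 and 1.15 in GFP-minus DCs. It had 1.60, 0.54 and 0.94 in GFP-plus CD103 macrophages, against -0.47, -0.75 and -0.48 in GFP-minus CD103 macrophages, and 1.24, 0.64 and 1.12 in GFP-plus CD11b macrophages, against -0.67, -0.50 and 0.47 in GFP-minus CD11b macrophages. The macrophage gates did not overlap, whereas replicate 1 of GFP-minus DCs lay at the level of the GFP-plus DCs. The effects were -1.12 ± 0.43 in DCs, 1.60 ± 0.43 in CD103 macrophages and 1.23 ± 0.43 in CD11b macrophages, and none passed (limma, adjusted p = 0.224, 0.2 and 0.653). The F-test for a difference between populations had adjusted p = 0.105, and 0.00517 without replicate 1 of GFP-minus DCs, where the effect in DCs was -1.72 (adjusted p = 0.0223). Pfkfb4 stayed between -0.54 and 0.57 on all arrays and passed in no comparison.

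**Figure D3:**
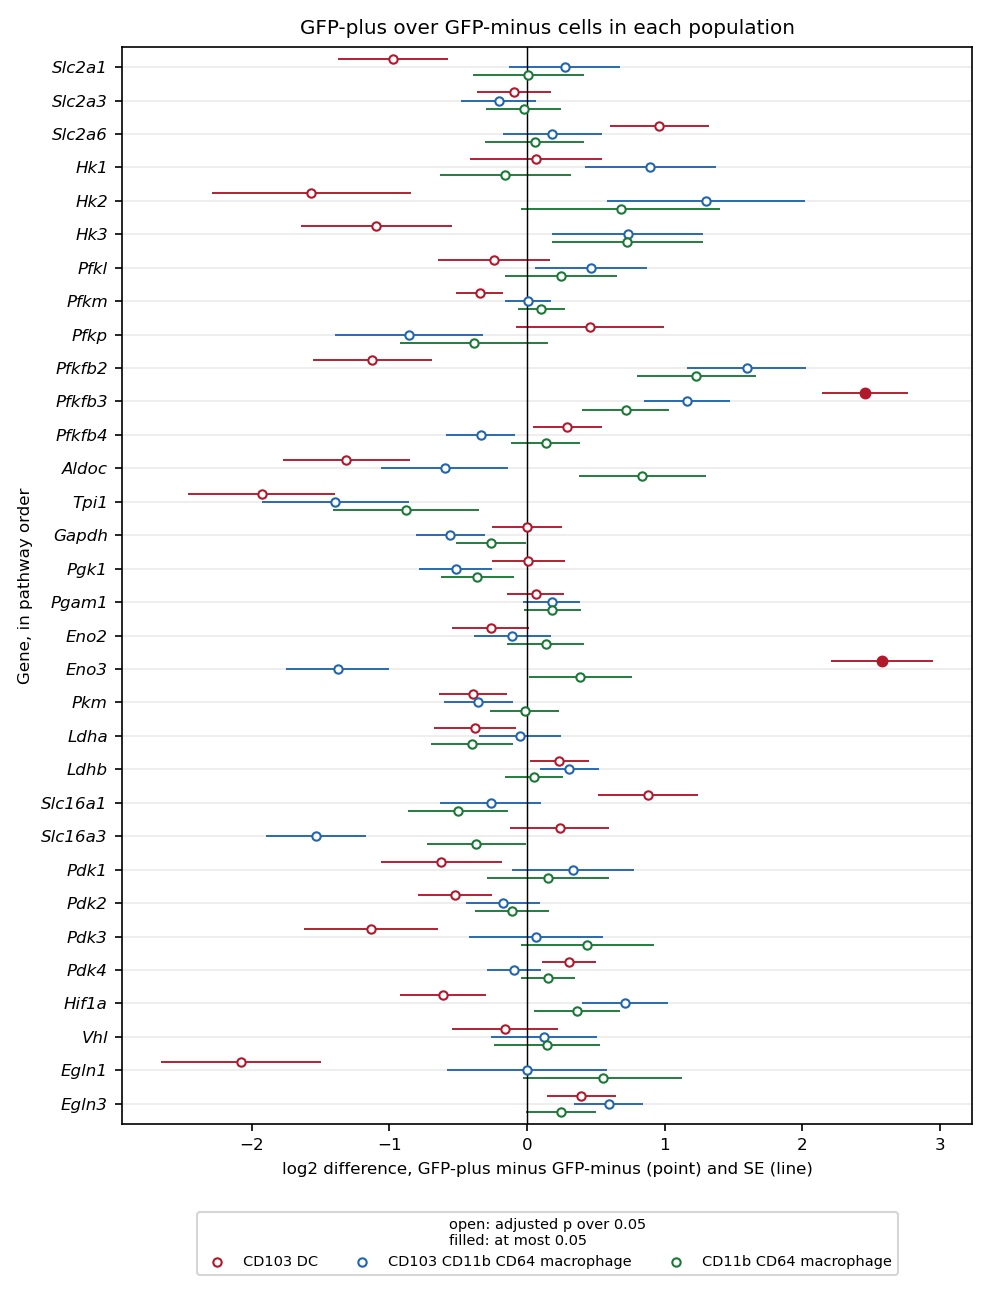
Log2 difference of GFP-plus minus GFP-minus cells (x axis, point) with its SE (line) for each of the 32 members (y axis, pathway order) in the 3 populations. Filled points passed the test, which were Pfkfb3 at 2.45 and Eno3 at 2.58, both in DCs.

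In the lower part of the pathway the sugar is split and oxidised. Aldoc, the brain-type aldolase, had -0.12, -0.18 and -1.06 in GFP-plus DCs, against 1.75, 0.82 and 0.00 in GFP-minus DCs, which did not overlap (-1.31 ± 0.46, limma, adjusted p = 0.178). CD103 macrophages had -1.27, 0.19 and -0.08 in GFP-plus cells, against 0.30, 0.35 and -0.03 in GFP-minus cells. CD11b macrophages had 0.91, 0.00 and 1.11 in GFP-plus cells, against -0.58, 0.17 and -0.08 in GFP-minus cells, and both macrophage populations overlapped.

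Tpi1 encodes the triose phosphate isomerase. It had -1.72, -1.02 and -1.89 in GFP-plus DCs, against 0.33, 0.80 and 0.02 in GFP-minus DCs. It had -2.62, -0.05 and -0.02 in GFP-plus CD103 macrophages, against 0.97, 0.48 and 0.04 in GFP-minus CD103 macrophages. It had -0.35, -0.60 and -0.16 in GFP-plus CD11b macrophages, against 0.52, 0.78 and 0.23 in GFP-minus CD11b macrophages. In all 3 populations every GFP-plus array lay below every GFP-minus array, and yet the differences of -1.93 ± 0.53, -1.39 ± 0.53 and -0.88 ± 0.53 did not pass (limma, adjusted p = 0.0906, 0.411 and 0.874). Their mean was -1.40 ± 0.31 with adjusted p = 0.0701, and -1.11 with adjusted p = 0.0112 without replicate 1 of GFP-plus CD103 macrophages, the array of lowest weight. Without replicate 2 of that group it was -1.54 with adjusted p = 0.0495.

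Gapdh, which oxidises the triose, was within -0.41 and 0.63 on the DC arrays and reached -1.16 on replicate 1 of GFP-plus CD103 macrophages. It passed in no comparison. The value of 0.63, on replicate 3 of GFP-plus DCs, averaged probes at 1.81, 0.08 and 0.01. Pgk1, which makes the first ATP of the pathway, had 0.22, 0.53 and 0.76 in GFP-plus DCs and -0.03, 0.78 and 0.72 in GFP-minus DCs. CD103 macrophages had -0.52, -1.04 and -0.47 in GFP-plus cells and 0.37, -0.65 and -0.18 in GFP-minus cells. CD11b macrophages had -0.29, -0.11 and -0.31 in GFP-plus cells and 0.03, 0.08 and 0.26 in GFP-minus cells. The DC and CD103 macrophage values overlapped, since replicate 1 of GFP-minus CD103 macrophages lay above replicate 1 of both DC groups. Pgk1 was 1.88-fold higher in DCs than in CD103 macrophages (0.91 ± 0.19, limma, adjusted p = 0.00589), with 1.18 among GFP-plus cells (adjusted p = 0.0126) and 0.65 among GFP-minus cells (adjusted p = 0.271). Against CD11b macrophages the difference of 0.55 ± 0.19 did not pass (adjusted p = 0.0958). Pgam1, the mutase, stayed between -0.33 and 0.50 as the mean of 2 probes that differed in direction. In CD103 macrophages their GFP effects were 0.69 ± 0.37 and -0.33 ± 0.26, and neither passed.

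Among the enolases Eno2, the neuronal type, stayed between -0.30 and 0.90 and passed in no comparison. Eno3 had 2.17, 2.46 and 2.07 in GFP-plus DCs, against -0.32, 0.22 and -0.93 in GFP-minus DCs. It had -1.08, -0.70 and -1.08 in GFP-plus CD103 macrophages, against 0.04, 0.83 and 0.39 in GFP-minus CD103 macrophages. It had -0.04, 1.13 and -0.39 in GFP-plus CD11b macrophages, against -0.32, -0.50 and 0.35 in GFP-minus CD11b macrophages. GFP-plus DCs were higher than every other array, GFP-plus CD103 macrophages were lower than their GFP-minus counterparts without overlap, and the CD11b gates overlapped.

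Eno3 was 5.97-fold higher in GFP-plus than in GFP-minus DCs (2.58 ± 0.37, limma, adjusted p = 0.00391). The call was lost when the arrays were quantile normalized (2.24, adjusted p = 0.16). In CD103 macrophages the effect was -1.37 ± 0.37 (adjusted p = 0.202) and in CD11b macrophages 0.39 ± 0.37 (adjusted p = 0.911). The GFP effect on Eno3 differed between populations (F-test, adjusted p = 0.0108), the only member for which it did, and DCs exceeded CD103 macrophages by 3.95 ± 0.53 (adjusted p = 0.00453). The F-test was lost after quantile normalization (adjusted p = 0.122) and without the 4 arrays of lowest weight (adjusted p = 0.0846). Averaged over the gates Eno3 was 2.31-fold higher in DCs than in CD103 macrophages (1.21 ± 0.26, adjusted p = 0.00914), but this mean joins 3.19 among GFP-plus cells (adjusted p = 5.87e-05) with -0.76 among GFP-minus cells (adjusted p = 0.407).

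Pkm, the pyruvate kinase of most tissues, had -0.76, -0.45 and -0.03 in GFP-plus DCs, against 0.01, -0.01 and -0.07 in GFP-minus DCs. CD103 macrophages had -0.62, -0.27 and 0.26 in GFP-plus cells, against 0.42, 0.10 and -0.08 in GFP-minus cells. CD11b macrophages had 0.13, 0.22 and 0.43 in GFP-plus cells, against 0.21, -0.12 and 0.73 in GFP-minus cells. The gates overlapped in all 3 populations, and the largest population difference was -0.48 ± 0.18 between DCs and CD11b macrophages (limma, adjusted p = 0.132).

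Lactate dehydrogenase turns pyruvate into lactate, mainly through the HIF-1 target Ldha, while Ldhb favours the reverse reaction. Ldha had -0.27, -0.38 and -0.20 in GFP-plus DCs, against -0.60, 0.47 and 0.40 in GFP-minus DCs. CD103 macrophages had -0.52, 0.36 and -0.26 in GFP-plus cells, against 0.14, 0.28 and -0.68 in GFP-minus cells. CD11b macrophages had -0.17, -0.14 and 0.16 in GFP-plus cells, against 0.31, 0.34 and 0.40 in GFP-minus cells, the 1 population without overlap (-0.40 ± 0.30, limma, adjusted p = 0.881). Ldhb had 0.01, -0.01 and -0.01 in GFP-plus DCs and 0.06, -0.24 and -0.54 in GFP-minus DCs. Its values were -0.09, -0.36 and 0.13 in GFP-plus CD103 macrophages, -0.74, 0.01 and -0.52 in GFP-minus CD103 macrophages, 0.27, 0.17 and 0.02 in GFP-plus CD11b macrophages and 0.29, 0.29 and -0.27 in GFP-minus CD11b macrophages. Every gate overlapped, and the widest population difference, -0.39 ± 0.15 between CD103 and CD11b macrophages, did not pass (adjusted p = 0.79).

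Lactate leaves cells through the monocarboxylate transporters, of which Slc16a3 (MCT4) is the exporter of glycolytic cells. Slc16a3 had -0.04, 0.31 and -0.24 in GFP-plus DCs, against -0.25, -0.16 and -0.26 in GFP-minus DCs. It had -1.18, -0.01 and 0.01 in GFP-plus CD103 macrophages, against 2.12, 0.69 and 0.60 in GFP-minus CD103 macrophages. It had 0.03, -0.37 and -0.23 in GFP-plus CD11b macrophages, against 0.23, 0.16 and 0.14 in GFP-minus CD11b macrophages. GFP-plus cells were lower on all arrays in both macrophage populations. The difference in CD103 macrophages, -1.53 ± 0.36, had the smallest p of any member in that population and did not pass (limma, adjusted p = 0.143), and -0.37 ± 0.36 in CD11b macrophages did not pass either (adjusted p = 0.916). Replicate 1 of both gates carried the extreme values in CD103 macrophages. Slc16a1 (MCT1) had 0.17 to 0.64 in GFP-plus DCs, against -1.26 to 0.01 in GFP-minus DCs, without overlap (0.88 ± 0.36, adjusted p = 0.262).

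**Figure D4:**
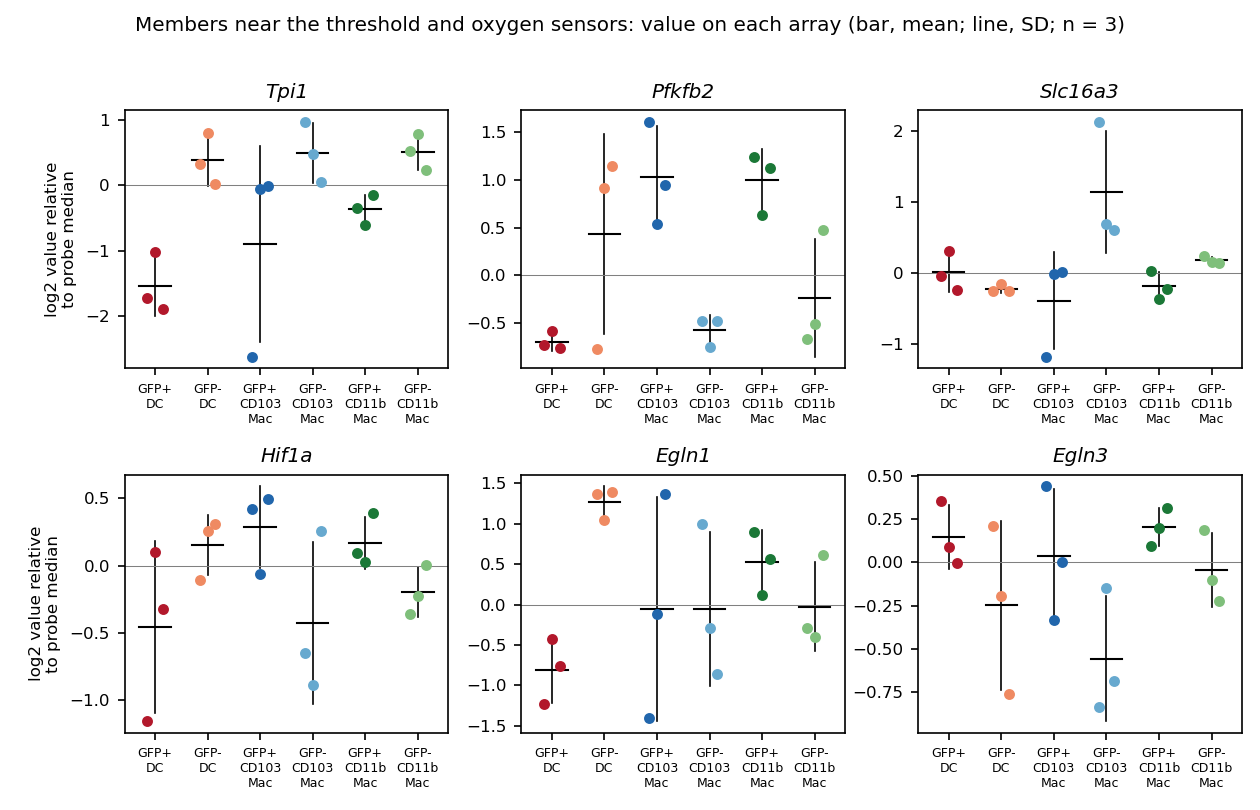
Log2 value relative to the probe median (y axis) on each array for 6 members that did not pass, by group (x axis). Points are arrays, bars are group means and lines are SD (n = 3). Tpi1 was lower on all GFP-plus arrays than on the GFP-minus arrays of the same population, and Egln1 was below 0 in GFP-plus DCs and above 1 in GFP-minus DCs.

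Pyruvate dehydrogenase kinases switch off the pyruvate dehydrogenase complex in mitochondria. Pdk1, the HIF-1 target of the family, had -0.44, -0.23 and -0.37 in GFP-plus DCs, against -0.62, 0.50 and 0.95 in GFP-minus DCs. CD103 macrophages showed -0.31, 0.67 and 0.50 in GFP-plus cells, against -0.64, -0.34 and 0.83 in GFP-minus cells. CD11b macrophages had -0.10, 0.60 and 0.23 in GFP-plus cells, against -0.44, 0.05 and 0.67 in GFP-minus cells. All gates overlapped, and Pdk1 passed in no comparison. Its 2 probes differed in DCs, where the GFP effect was 0.07 ± 0.21 on one and -1.31 ± 0.78 on the other.

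Pdk2 had -0.94, -0.95 and -0.66 in GFP-plus DCs and -0.57, -0.21 and -0.19 in GFP-minus DCs. CD103 macrophages showed -0.25, -0.07 and 0.28 in GFP-plus cells and 0.75, 0.35 and -0.61 in GFP-minus cells. CD11b macrophages had 0.18, 0.30 and 0.10 in GFP-plus cells and 0.07, 0.54 and 0.31 in GFP-minus cells. All DC arrays lay below all CD11b macrophage arrays, and Pdk2 was 1.78-fold lower in DCs (-0.84 ± 0.19, limma, adjusted p = 0.0113), a call lost after quantile normalization (-0.68, adjusted p = 0.0689). Against CD103 macrophages, with which the DC arrays overlapped, the difference of -0.66 ± 0.19 passed narrowly (adjusted p = 0.0469). It was lost without any single one of 10 of the 12 arrays compared, the adjusted p then lying between 0.0549 and 0.118. Pdk3 ran from -2.16 to 0.34 in DCs and from -0.52 to 0.72 in macrophages, and -1.10 ± 0.34 against CD11b macrophages did not pass (adjusted p = 0.0694). Pdk4, the fasting-induced kinase, stayed between -0.19 and 0.73.

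**Figure D5:**
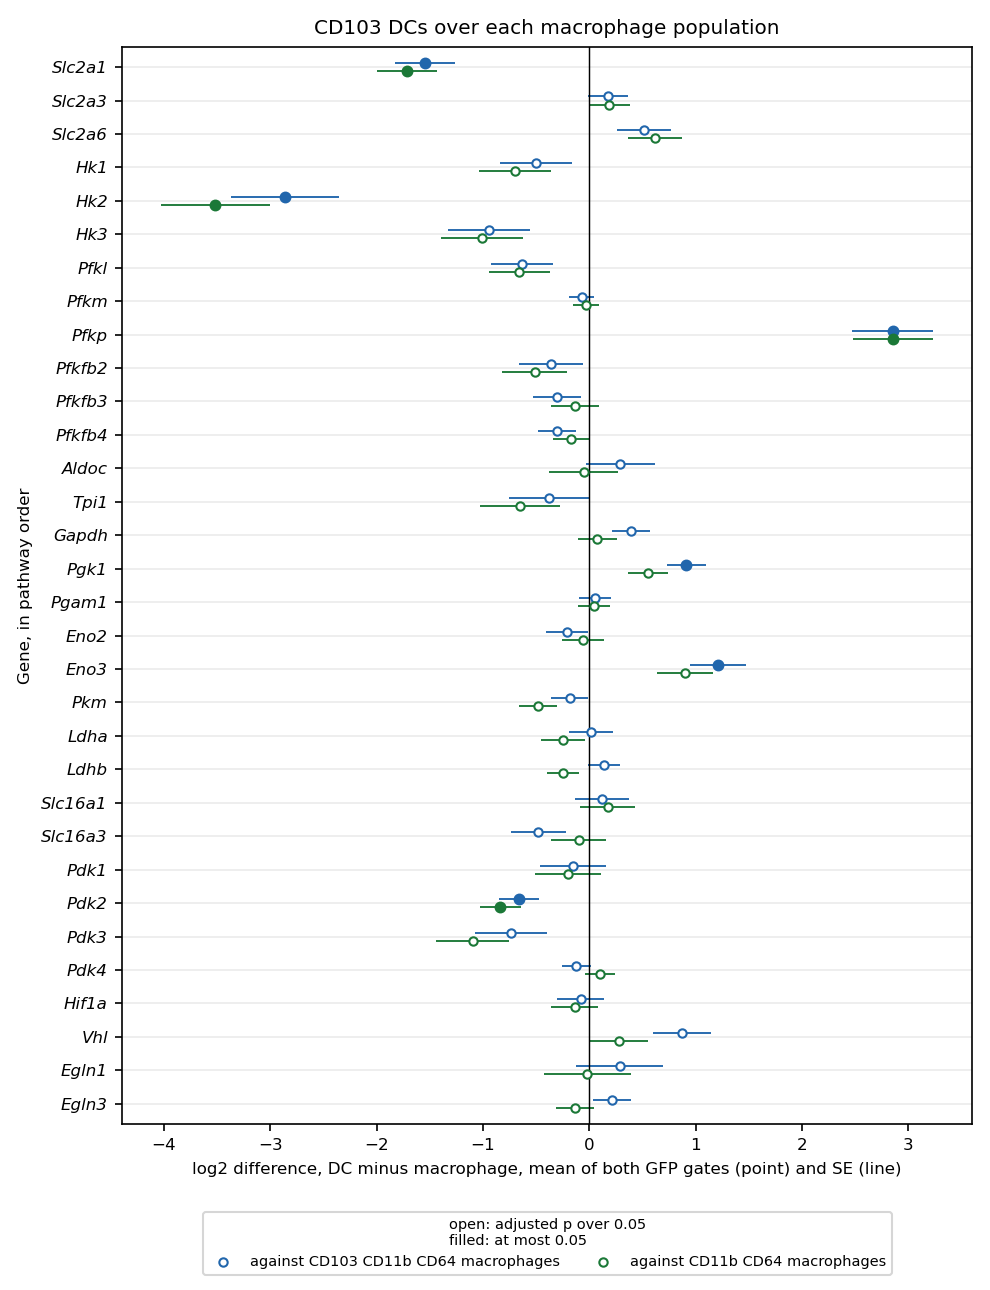
Log2 difference of DCs minus each macrophage population, averaged over both GFP gates (x axis, point), with its SE (line) for each of the 32 members (y axis, pathway order). Filled points passed the test. Pfkp at 2.85 and 2.86 and Hk2 at -2.86 and -3.52 lie farthest from 0.

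The transcript of the oxygen-regulated subunit itself, Hif1a, had -1.15, 0.10 and -0.32 in GFP-plus DCs, against -0.10, 0.26 and 0.31 in GFP-minus DCs. In CD103 macrophages it had 0.42, -0.06 and 0.50 in GFP-plus cells, against -0.65, -0.88 and 0.26 in GFP-minus cells. CD11b macrophages had 0.09, 0.02 and 0.39 in GFP-plus cells, against -0.36, -0.23 and 0.01 in GFP-minus cells. The gates overlapped except in CD11b macrophages, and the effects of -0.61 ± 0.31, 0.71 ± 0.31 and 0.36 ± 0.31 did not pass (limma, adjusted p = 0.377, 0.51 and 0.893). The 2 probes of Hif1a gave different sizes in CD103 macrophages, 1.20 ± 0.31 (adjusted p = 0.166) and 0.22 ± 0.44 (adjusted p = 0.945). HIF-1α is controlled mainly through the stability of the protein, which arrays do not measure.

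Vhl, the ubiquitin ligase subunit that binds hydroxylated HIF-1α, had 0.75, 0.37 and -0.39 in GFP-plus DCs and 0.94, 0.30 and -0.04 in GFP-minus DCs. CD103 macrophages had -1.01, 0.06 and -0.50 in GFP-plus cells and -0.82, -0.88 and -0.13 in GFP-minus cells. CD11b macrophages had 0.04, 0.14 and 0.16 in GFP-plus cells and -0.67, 0.67 and -0.10 in GFP-minus cells. DCs and CD103 macrophages overlapped, and the difference of 0.87 ± 0.27 did not pass (limma, adjusted p = 0.0719).

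Egln3, the hydroxylase most strongly raised by HIF, had 0.35, 0.09 and 0.00 in GFP-plus DCs, against 0.21, -0.20 and -0.76 in GFP-minus DCs. CD103 macrophages had 0.44, -0.33 and 0.00 in GFP-plus cells, against -0.83, -0.15 and -0.69 in GFP-minus cells. CD11b macrophages had 0.09, 0.20 and 0.32 in GFP-plus cells, against 0.19, -0.10 and -0.22 in GFP-minus cells. The gates overlapped in all 3 populations, and the mean effect of 0.41 ± 0.15 did not pass (limma, adjusted p = 0.309). Egln1, the main oxygen sensor in most cells, is given because of its values in DCs, which were seen first. It had -1.23, -0.43 and -0.76 in GFP-plus DCs, against 1.36, 1.05 and 1.40 in GFP-minus DCs, a difference of -2.08 ± 0.58 that did not pass (adjusted p = 0.0923). In both macrophage populations the gates overlapped.

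Neighbouring pathways were read from lists of other genes, to be set beside the 0.325% of all genes that passed higher and the 1.26% that passed lower in GFP-plus DCs. In DCs, 1 of 7 genes of the pentose phosphate pathway was lower in GFP-plus cells, Pgd, which makes NADPH and ribulose 5-phosphate. Pgd had -3.22, -1.57 and -3.39 in GFP-plus DCs, against -0.66, -0.37 and -0.54 in GFP-minus DCs (-2.20 ± 0.47, limma, adjusted p = 0.0348). Of 16 genes of gluconeogenesis and glycogen 1 was lower, the mitochondrial phosphoenolpyruvate carboxykinase gene Pck2, at -1.22, -1.02 and -0.94 in GFP-plus DCs, against 0.40, 0.04 and -0.17 in GFP-minus DCs (-1.15 ± 0.24, adjusted p = 0.034). Of 21 genes of pyruvate entry and the tricarboxylic acid cycle 0 passed in DCs in limma. Unadjusted p was under 0.05 for 10 of them, against 15.4% of all genes, and 18 lay below 0. The median of this list in DCs was -0.94 beside -0.02 over all genes. It was -0.49 in CD103 macrophages and -0.06 in CD11b macrophages, beside 0.02 and 0.01 over all genes.

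Of 20 regulators of glucose use 1 passed in DCs, Mtor, the growth kinase that promotes glycolysis through HIF-1 and MYC. Mtor had 2.32, 1.81 and 1.84 in GFP-plus DCs, against -0.06, 0.63 and 1.00 in GFP-minus DCs (1.47 ± 0.33, limma, adjusted p = 0.0415). Its mean effect over the 3 populations was 0.97 ± 0.19 (adjusted p = 0.0391). Of 28 other HIF target genes 0 passed in DCs in limma, with 10 at an unadjusted p under 0.05 (15.4% of all genes), and 1 passed for the mean effect, the carbonic anhydrase gene Car12 (0.47 ± 0.09, adjusted p = 0.0398). Of 10 genes for other HIF subunits and oxygen sensing, and of 21 other isozymes and glucose transporters, 0 passed in DCs in limma, with 3 and 4 at an unadjusted p under 0.05, against 15.4% of all genes. In the CD103 and CD11b macrophages 0 genes of any of these 7 lists passed in limma with the GFP gate, and at most 4 of a list had an unadjusted p under 0.05, against 9.2% and 6.16% of all genes.

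Between populations the other HIF target genes moved in both directions. Against CD103 macrophages 2 of 28 were higher and 5 lower in DCs (2.6% and 5.33% of all genes), and against CD11b macrophages 2 were higher and 4 lower (2.17% and 5.94% of all genes). Vegfa, the angiogenic growth factor, had -3.35, -3.24 and -3.51 in GFP-plus DCs and -3.18, -2.80 and -1.62 in GFP-minus DCs, below every macrophage array but with 1 macrophage array at -1.61 next to the highest DC array. It was lower by -2.99 ± 0.37 against CD103 macrophages (limma, adjusted p = 7.78e-05) and by -3.49 ± 0.37 against CD11b macrophages (adjusted p = 1.45e-05). Hmox1, which degrades haem and also answers to oxidants, was lower by -4.71 ± 0.33 and -4.55 ± 0.33 (adjusted p = 1.39e-07 and 1.99e-07), with -5.91 to -2.66 on the DC arrays and -0.64 to 0.89 on the macrophage arrays. Ndrg1, a stress-responsive gene, was higher in DCs by 2.70 ± 0.32 and 2.22 ± 0.32 (adjusted p = 5.05e-05 and 0.000333). Cxcr4, a chemokine receptor, was lower by -1.43 ± 0.12 and -1.58 ± 0.12 (adjusted p = 1.07e-06 and 3.58e-07), and Rora, a nuclear receptor, by -1.18 ± 0.24 and -1.33 ± 0.24 (adjusted p = 0.00646 and 0.00237). Adm, which encodes adrenomedullin, was lower and Bhlhe40, a transcription factor, higher against CD103 macrophages (-2.42 ± 0.58 and 1.15 ± 0.30, adjusted p = 0.0173 and 0.0294), and Car12 was higher against CD11b macrophages (0.42 ± 0.11, adjusted p = 0.03).

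Among the 20 regulators 1 was higher and 7 lower in DCs than in CD103 macrophages, and 1 was higher and 6 lower than in CD11b macrophages, beside the same shares of all genes, 2.6% and 5.33%, and 2.17% and 5.94%. Mtor was the higher gene in both (1.74 ± 0.23 and 1.68 ± 0.23, limma, adjusted p = 0.000142 and 0.000184). Lower genes were Irs2 (-1.58 ± 0.14 and -1.61 ± 0.14, adjusted p = 2.91e-06 and 2.28e-06), Igf1r (-1.55 ± 0.26 and -2.04 ± 0.26, adjusted p = 0.00127 and 9.51e-05) and Insr (-1.61 ± 0.36 and -1.55 ± 0.36, adjusted p = 0.0101 and 0.0124), which carry insulin and IGF signals to glucose uptake. Sesn1, an inhibitor of mTORC1 (-2.10 ± 0.26 and -1.84 ± 0.26, adjusted p = 6.3e-05 and 0.000226), and Txnip, an inhibitor of glucose uptake (-1.44 ± 0.32 and -1.30 ± 0.32, adjusted p = 0.00956 and 0.0178), were lower too. Myc and Tsc1 were lower than in CD103 macrophages (-1.61 ± 0.46 and -1.19 ± 0.29, adjusted p = 0.0469 and 0.0182), and Rptor, a subunit of mTORC1, was lower than in CD11b macrophages (-1.02 ± 0.27, adjusted p = 0.0301).

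Among the other isozymes and transporters the lactate and pyruvate transporter gene Slc16a7 (MCT2) was lower in DCs, at -1.88 to -1.41 on the DC arrays, against -0.51 to 1.75 on the macrophage arrays (-2.15 ± 0.24 and -1.82 ± 0.24, adjusted p = 2.22e-05 and 0.000112). Galm, the mutarotase that also acts on glucose, was lower than in CD11b macrophages (-0.76 ± 0.20, adjusted p = 0.0257). Pgd was lower as well (-1.60 ± 0.33 and -2.23 ± 0.33, adjusted p = 0.00674 and 0.000431), as was the prolyl hydroxylase gene Egln2 (-1.07 ± 0.22 and -1.15 ± 0.22, adjusted p = 0.0061 and 0.00318), and Cited2, which competes with HIF-1α for its coactivator, was lower than in CD103 macrophages (-1.61 ± 0.40, adjusted p = 0.0216). The pentose phosphate gene Taldo1 and Gyg, which primes glycogen, were higher than in CD103 macrophages (0.66 ± 0.13 and 1.56 ± 0.36, adjusted p = 0.00367 and 0.0125). The glycogen phosphorylase gene Pygl and Pck2 were lower than in CD11b macrophages (-1.04 ± 0.27 and -0.60 ± 0.17, adjusted p = 0.0252 and 0.0473). Of the tricarboxylic acid cycle genes Cs and Suclg1 were higher in DCs than in CD103 macrophages (1.71 ± 0.43 and 1.30 ± 0.28, adjusted p = 0.0229 and 0.00844). Against CD11b macrophages 0 of 21 passed in limma, with 6 at an unadjusted p under 0.05, against 18.5% of all genes. Calls against CD103 and CD11b macrophages were 1 and 2 of 21 other isozymes and transporters and 2 and 1 of 7 pentose phosphate genes. They were 1 and 2 of 16 gluconeogenesis and glycogen genes and 2 and 1 of 10 genes of HIF subunits and oxygen sensing. Of all genes 7.93% and 8.12% were called.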

How the data were processed

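The authors deposited 1 table of 33793 probes on 18 arrays. Its values are on a log scale with base 2 inferred from their range (a single probe spanned 10.15 units), so natural log was not strictly excluded, and each probe is centred on its median over the arrays. The authors' normalization and software were not given in the sources used here. Per the labels' protocols, RNA was amplified and labelled with biotin. The deposited log2 values were used as they are. Probes with 1 gene symbol (23521) were averaged per gene, and probes with several symbols (1814) or none (8458) were left out. All 18 arrays entered 1 linear model with a mean for each group, in limma 3.58.1 (R 4.3.3, empirical Bayes), with two-sided p-values adjusted by Benjamini-Hochberg over 22180 genes and a threshold of 0.05. It was tested on simulated data. SE are from this fit. Precision is limited by having 3 arrays in a group, and centring removed absolute signal, so no probe could be called undetected. Values on every array are given for members that passed, the 3 members with the smallest p in each comparison, and 9 rate-limiting or hypoxia-linked members. Genes of other lists are named where they passed. The members and lists were chosen with earlier results of these data known. Replicate numbers were not used as pairs in the main fit. Correlations of deviations from the group mean ran from -0.138 to 0.248 for same-numbered arrays of a population. Over all groups they ran from -0.172 to 0.337 for same-numbered arrays, with 13 of 45 over 0.1. For differently numbered arrays they ran from -0.36 to 0.29, with 12 of 90 over 0.1. Alternatives were other normalizations, array weights, a replicate block, leaving out arrays, and each GFP gate alone.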

Additional observations from a re-analysis of the deposited data

Results flagged for a closer look

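The GFP effect on Eno3 differed between populations, by a test of the difference itself. The F-test over the 3 populations had an adjusted p of 0.0108 in limma. It did not pass after quantile normalization or without the 4 arrays of lowest weight. The GFP effect was 2.58 in DCs, higher on 3 of 3 GFP-plus arrays, and it passed there but not after quantile normalization. In CD103 macrophages the GFP effect was -1.37, lower on 3 of 3. DCs exceeded CD103 macrophages by 3.95 on the log2 scale (limma, adjusted p = 0.00453). Against CD11b macrophages the excess was 2.19 (adjusted p = 0.0806). The cause was not tested.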

How the results depend on the processing

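Across the alternatives, 150 counts of members called stayed within 1.5 times of the count reported and 16 did not. For single members 687 values kept their direction and side of the threshold, 27 lost a call, 9 gained one and 1 reversed. These totals include 3 comparisons in which 0 members passed and values of members that did not pass, where staying the same says little. The GFP effect in DCs (2 members) gave 1 after quantile normalization and 4 at an adjusted p threshold of 0.1. Calls over all genes there were 37 (18 higher) after quantile normalization, 85 with only the DC arrays and 774 at the threshold of 0.1, against 351 (72 higher). The mean GFP effect (1 member) gave 2 after quantile normalization, with array weights and at the threshold of 0.1, with Tpi1 as the added gene each time. The F-test (1 member) gave 0 after quantile normalization and without the 4 arrays of lowest weight, and 2 with array weights, which added Pfkfb2. DCs over CD11b macrophages (4 members) gave 7 at the threshold of 0.1, 8 within the GFP-plus gate and 1 within the GFP-minus gate, and DCs over CD103 macrophages (6 members) gave 1 within the GFP-minus gate, where Eno3 reversed to -0.76. Leaving out 1 array at a time gave 2 to 5 members for the GFP effect in DCs, 1 to 2 for the mean effect, 1 to 2 for the F-test, 5 to 7 for DCs over CD103 macrophages, 4 to 6 for DCs over CD11b macrophages and 0 to 0 for the 3 other comparisons. The 5 arose without replicate 2 of GFP-plus DCs and were Eno3, Pfkfb3, Slc2a1, Hk3 and Pdk3. With replicate number as a block, 5 members differed between DCs and CD103 macrophages (Pdk2 was lost) and 6 between DCs and CD11b macrophages (Eno3 and Pdk3 were added). The block changed no other count of members. Of the 18 arrays 11 correlated best with an array of their own number, a hint from the data and not from the design. Calls over all genes moved by more than 1.5 times for other comparisons too. For the GFP effect in CD103 macrophages (12 genes) they were 89 after quantile normalization, 95 with array weights, 0 with only the arrays compared, 43 at the threshold of 0.1 and 30 without the 4 arrays of lowest weight. For CD11b macrophages (6 genes) they were 31 after quantile normalization and 53 with array weights. The mean effect (91 genes) gave 183, 177 and 184 after quantile normalization, with array weights and at the threshold of 0.1. The F-test (80 genes) gave 35 after quantile normalization, 193 with array weights, 121 with the replicate block and 205 at the threshold of 0.1. CD103 over CD11b macrophages (16 genes) gave 43 after quantile normalization, 29 with array weights, 3 with only the arrays compared, 9 within the GFP-plus gate and 3 within the GFP-minus gate, where DCs gave 805 against CD103 macrophages (1758 genes) and 731 against CD11b macrophages (1800 genes). Leaving out 1 array gave as many as 711 genes in DCs and 226 for the F-test, both without replicate 2 of GFP-plus DCs. The median over members was 0.00 for the GFP effect in CD103 macrophages and 0.17 without replicate 1 of GFP-plus CD103 macrophages. The filter on dim probes was not run, because the values hold no absolute signal. Causes were not tested.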

Other observations

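Over the 6 group means, the 5 other genes with the highest Pearson correlation to the mean of the members were Arhgap35 (r = 0.993) and Necap1, Bap1, Arfgap1 and Usb1 (r = 0.989 each). For Hif1a they were Ccdc66 (r = 0.995), Stag2 (r = 0.993) and Lemd3, Mga and Cylc2 (r = 0.989 each). These are descriptions over 6 points picked from 22180 genes. A probe shared by Aldoa and Aldoart1, which the choice of members left out, read -2.28 on replicate 1 of GFP-plus CD103 macrophages and -0.67 to 0.87 on the other 17 arrays.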
